A study of Mus musculus with 8 samples.

Results

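The transcripts of the mitochondrial genome were examined in RNA-Seq data from mouse distal colon. They were taken as every gene whose symbol starts with mt-, which gave 37 of the 52143 genes with a value: 13 protein genes, 2 rRNA genes and 22 tRNA genes, all on chromosome M. Human SIGLEC12 encodes Siglec-XII, a member of a sialic acid–binding family that, as the paper states, has itself lost this binding. The study expressed it in the intestinal epithelium of mice, which have no such gene of their own. The baseline groups asked what this expression changes in the colon before any carcinogen is given. Control mice (4 samples) were Villin1-Cre-ERT, and SiglecXII mice (4 samples) were SIGLEC12-Villin1-Cre-ERT, that is, heterozygous for a conditional SIGLEC12 cassette at the ROSA26 locus. Both groups carried Cre-ERT under the Villin1 promoter, which is active in intestinal epithelial cells, and both received tamoxifen (10 mg/mL) on 5 days from 8 weeks of age and were harvested 7 days after the last dose. Controls were littermates with the Cre transgene alone, and only female mice were used. The design text speaks of 3 mice per condition and the Methods of 3 technical libraries per sample, whereas 4 samples per group are labeled, so p-values measure the spread between these samples, which may be technical in part.

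The mitochondrial genome is a small circle present in many copies per cell. It encodes core subunits of the respiratory chain and of ATP synthase, together with the rRNAs and tRNAs that translate them inside the organelle. Both strands are transcribed as long precursors that are cut largely at the tRNAs, so that neighboring genes begin on the same RNA and differ in level mainly by processing and stability. All the enzymes of this process are encoded in the nucleus. In colonocytes the respiratory chain is known for oxidizing butyrate made by the microbiota.

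Values were TPM, the share of a transcript in 1000000 after correction for length, deposited as log2(TPM + 1). TPM keeps no record of depth, so no counting error can be given. SIGLEC12, EGFP and Cre had no row, and the labels were not checked against them. The markers of colon epithelium matched the labeled tissue, with all 11 above a TPM of 1 in every sample and summed TPM from 11383 to 15972 in controls and from 11390 to 15497 in SiglecXII samples. Samples SiglecXII 3 and 4 stood apart from the other 6: on the first principal component of all tested genes, which held 40.3% of the variation, they lay at 36.2 and 50.2 while every other sample was below 0. They also had the fewest genes at a TPM of 1 or more, 12827 and 12748, beside 13132 to 13715 in the others. Whether RNA or library quality differed was not tested. The median gene of these 2 samples was below its average over all samples, by −0.16 and −0.30 on the log2 scale, and the mean of this shift in SiglecXII samples minus that in controls was −0.15.

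Sequence decided how some of these values could be read, because kallisto assigns reads by the 31-base windows they contain. On GRCm38, 7 unprocessed pseudogenes on the minus strand of chromosome 1, between 24611535 and 24616197, were near-perfect copies of mitochondrial genes. In the order of that locus they were Gm28439 (mt-Nd4), Gm10222 (mt-Nd4l), Gm28438 (mt-Nd3), Gm28437 (mt-Co3), Gm10925 (mt-Atp6), Gm28661 (mt-Co2) and Gm29216 (mt-Co1). Of the windows of each copy, 100% lay in the mitochondrial gene for 5 of them, 99.0% for Gm28438 and 97.2% for Gm29216. Gm28438 differed from mt-Nd3 at a single base among 345, T3C, counted from 1 at the first base of the gene, which is position 9461 of chromosome M. This position is known to differ between C57BL/6 substrains, and the base carried by these mice was not determined. Gm29216 differed from mt-Co1 at 6 of 492 bases (T1056A, C1057T, A1059G, A1060G, C1062A and A1066T). The first 60 bases of mt-Nd3 (chrM:9459-9518, plus strand) and of its copy (chr1:24613060-24613119, minus strand) are shown with the differing base in capitals, since little else tells their reads apart.
mt-Nd3: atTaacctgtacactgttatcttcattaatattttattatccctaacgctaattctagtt
Gm28438: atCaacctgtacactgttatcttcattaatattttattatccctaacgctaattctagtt

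Neighbors on the mitochondrial genome also share bases. The reading frame of mt-Atp8 runs 43 bases into mt-Atp6, that of mt-Nd4l runs 7 bases into mt-Nd4, and the last 14 bases of mt-Nd5 lie opposite the end of mt-Nd6, the one protein gene on the minus strand. The last 80 bases of mt-Atp8 (chrM:7890-7969, plus strand) are given with the bases shared with mt-Atp6 in capitals, and the last 40 bases of mt-Nd4l (chrM:10134-10173, plus strand) and mt-Nd5 (chrM:13526-13565, plus strand) with the bases shared with, or opposite to, the neighbor in capitals.
mt-Atp8 end: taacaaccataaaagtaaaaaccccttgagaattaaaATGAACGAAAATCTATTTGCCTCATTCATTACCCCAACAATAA
mt-Nd4l end: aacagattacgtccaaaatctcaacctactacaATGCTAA
mt-Nd5 end: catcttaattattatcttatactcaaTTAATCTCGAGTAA

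The start codon atg opened 9 of the 13 protein genes. The other 4 opened with gtg (mt-Nd1), ata (mt-Nd2), att (mt-Nd3) and atc (mt-Nd5). In 3 genes, mt-Co3, mt-Nd4 and mt-Cytb, the annotated sequence ended on a lone t after the last full codon, a stop codon that the poly(A) tail is known to complete.

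All mitochondrial genes together held a higher share of TPM in every SiglecXII sample than in any control. The share was 6.78%, 5.74%, 7.38% and 7.27% in controls 1 to 4 and 8.50%, 8.80%, 10.0% and 12.8% in SiglecXII samples 1 to 4. The means were 6.80% ± 0.747 and 10.0% ± 1.98 (SD, n = 4 each), a ratio of 1.48. SiglecXII 3 and 4, the samples that stood apart, held the highest shares, and SiglecXII 1 and 2 were still above the highest control. With the TPM of the 7 nuclear copies added, the share ran from 7.28% to 9.68% in controls and from 10.6% to 17.0% in SiglecXII samples, again without overlap. In bulk tissue, more mitochondrial RNA per cell, more cells rich in it and less RNA of other kinds cannot be told apart.

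**Figure D1:**
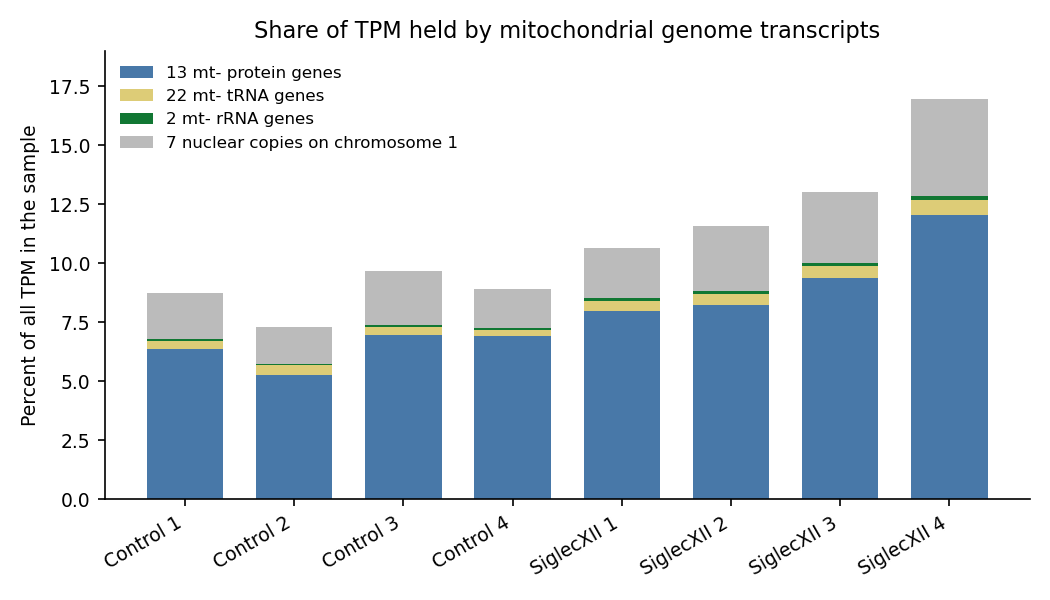
Percent of all TPM (vertical axis) in each of the 8 samples, stacked as 13 protein, 22 tRNA and 2 rRNA genes of the mitochondrial genome and 7 nuclear copies on chromosome 1. The stacks of the 4 SiglecXII samples, from 10.6% to 17.0%, are all above those of the 4 controls, from 7.28% to 9.68%, and protein genes make up most of each stack.

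Protein genes held 6.37% ± 0.785 of TPM in controls and 9.39% ± 1.86 in SiglecXII samples (SD, n = 4 each), a ratio of 1.48. The 2 rRNAs together held 0.0830% ± 0.00390 and 0.121% ± 0.0454, a ratio of 1.46, and the tRNAs 0.346% ± 0.0508 and 0.524% ± 0.0801, a ratio of 1.52. In each of these 3 classes all SiglecXII samples were above all controls. The tRNA sum was mostly 1 gene, mt-Tp, with a mean TPM of 3239 of 3457 in controls and 4925 of 5242 in SiglecXII samples. Without mt-Tp the groups of the tRNA sum overlapped. The log2 difference of the summed rRNAs was 0.48, and 0.25 without SiglecXII 4. By respiratory complex, with nuclear copies added, the ratio was 1.50 for the 7 genes of complex I, 1.53 for mt-Cytb of complex III, 1.46 for the 3 genes of complex IV and 1.59 for the 2 genes of ATP synthase (complex V), again with no overlap between the groups.

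Gene by gene, no mitochondrial transcript passed the adjusted threshold. Of the 37 genes, 28 reached a TPM of 1 in 4 or more samples and were tested (13 protein, 2 rRNA and 13 tRNA genes). At an adjusted p of 0.05 or less in limma, 0 of the 28 passed, against 0.038% of the 13164 tested genes, and the smallest adjusted p among the 28 was 0.515. At an unadjusted P of 0.05 or less in limma, 16 of the 28 were higher in SiglecXII samples and 0 were lower, against 1.19% of all tested genes that were higher and 7.67% that were lower (8.87% in either direction). The 16 were 12 protein genes, mt-Rnr1 and the tRNA genes mt-Te, mt-Tp and mt-Ta. With a fold-change of 2 or more in addition, 2 were higher (mt-Te and mt-Ta), against 0.243%. mt-Ta was at 0 in 3 controls and met the filter through the SiglecXII samples, so its place in these counts is no support for a difference. The log2 difference was above 0 in 26 of the 28, against 21.9% of all tested genes, and its median was 0.52 against −0.15. All SiglecXII samples were above all controls in 14 of the 28, against 1.05% of tested genes. The 13 protein genes begin on shared precursors and are not independent of one another.

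These counts rested in part on SiglecXII 3 and 4. Without both, 5 of the 28 genes passed at unadjusted P, all higher, and 3 of them were protein genes, while 1.18% of all tested genes were higher. The median log2 difference of the 13 protein genes was then 0.35 in place of 0.59, each of the 13 was still above 0, and the median of all tested genes was 0.0031. Summed TPM of 8 smooth muscle markers, which lie in the wall beneath the mucosa, moved the other way: it was 867, 632, 1016 and 823 in controls and 647, 571, 659 and 308 in SiglecXII samples, and 4 of the 8 were lower at unadjusted P, against 7.67% of all tested genes (adjusted p = 0.515 from limma). Of 5 adipocyte markers, 1 was above a TPM of 1 in all samples, and their sum lay between 5.03 and 30.9 in controls and between 4.68 and 14.5 in SiglecXII samples. The sum of 6 leukocyte markers was 2.28 to 8.01 in controls and 1.41 to 2.14 in SiglecXII samples. Of these 6, 0 were at a TPM of 1 or more in all samples and 0 were called at unadjusted P, so this sum is near the floor. None of the 11 markers of these last 2 lists was at 0 in all samples, and the part of cell makeup in the mitochondrial share was not tested.

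The nuclear copies took a large part of the TPM of 4 genes, mt-Nd3, mt-Co2, mt-Atp6 and mt-Co1. The 2 copies of mt-Nd4 and mt-Nd4l, Gm28439 and Gm10222, were listed at 0 in all 8 samples although all their windows lie in the mitochondrial genes. The copies of mt-Atp6, mt-Co2 and mt-Co1 were among the 20 highest genes of the data. mt-Atp6 encodes the membrane channel subunit of ATP synthase, and mt-Co2 the electron entry subunit of complex IV. Gm10925 had a TPM of 5146, 4201, 7328 and 3983 in controls and 7358, 8372, 8772 and 13056 in SiglecXII samples, so that the groups did not overlap. Gm28661 had 5410, 3925, 6044 and 4393 in controls and 5149, 8334, 9064 and 10724 in SiglecXII samples, with SiglecXII 1 inside the range of the controls. Gm29216, the copy of part of mt-Co1, had 5623, 4396, 5388 and 5179 in controls and 5643, 5774, 6698 and 10156 in SiglecXII samples.

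The division of reads differed from pair to pair and from sample to sample. The copy held from 76.4% to 85.6% of the summed TPM of mt-Nd3 and Gm28438, which is more than the mitochondrial gene in all 8 samples, although the pair differs at 1 base. It held 37.5% to 58.6% for mt-Co2 and Gm28661, 30.3% to 48.5% for mt-Atp6 and Gm10925, 25.9% to 31.3% for mt-Co1 and Gm29216, and 5.57% to 15.7% for mt-Co3 and Gm28437. The groups overlapped in all 5 of these shares. Among the 5 tested copies, 4 were higher in SiglecXII samples at unadjusted P and 0 at adjusted p in limma: Gm10925 by 0.87 (standard error 0.231), Gm28661 by 0.72 (0.230), Gm28438 by 0.43 (0.158) and Gm28437 by 0.99 (0.430) on the log2 scale. Of all tested genes, 1.19% were higher at unadjusted P and 0.038% passed at adjusted p. A copy of identical sequence has no window of its own, so its value cannot be told apart from that of the mitochondrial gene. Another 12 pseudogenes shared windows with mitochondrial genes, at most 48.0% of their own, and the highest TPM among them was 2.38.

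**Figure D2:**
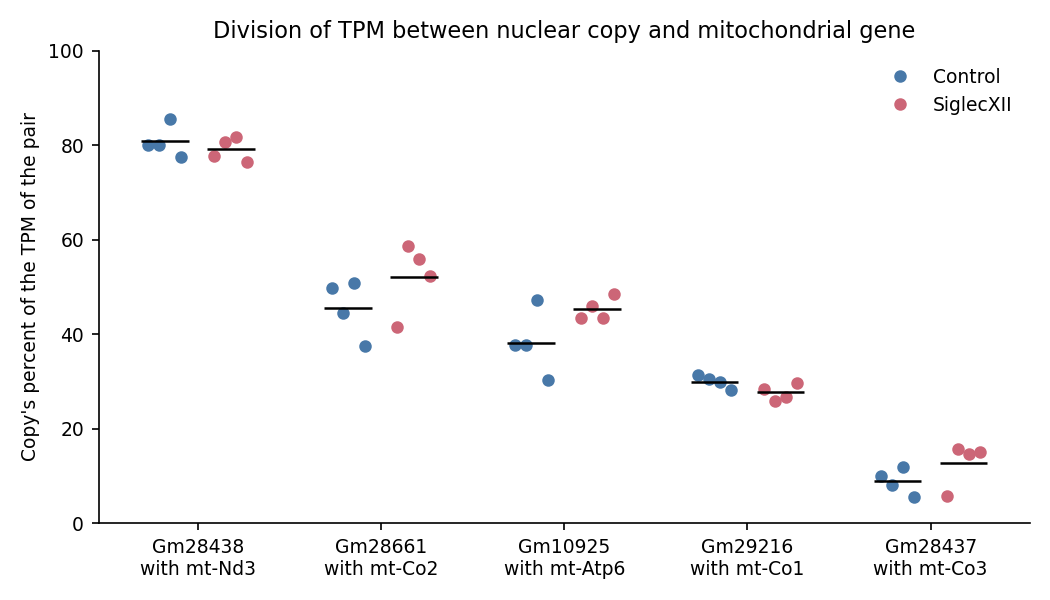
Percent of the summed TPM of each pair (vertical axis) that was assigned to the nuclear copy, for the 5 pairs whose copy had a TPM above 0. Points are the 4 samples of each group and horizontal bars the group means, and the share falls from pair to pair, from a control mean of 80.8% for Gm28438 with mt-Nd3 to one of 8.88% for Gm28437 with mt-Co3.

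Adding each copy to its mitochondrial gene brought the protein genes closer together. As deposited, the log2 differences of the 13 genes ran from 0.34 in mt-Co2 to 0.76 in mt-Atp8, and with copies added from 0.46 in mt-Nd3 to 0.76 in mt-Atp8, with a median of 0.59 in both forms. The difference of mt-Co2 was 0.34 ± 0.175 (SE, unadjusted P = 0.0809 in limma) as deposited and 0.53 ± 0.169 (SE, unadjusted P = 0.0116 in limma) with its copy added. For mt-Atp6 it was 0.44 as deposited and 0.61 with Gm10925 added, and for mt-Nd3 0.60 as deposited and 0.46 with Gm28438 added. With copies added, all 13 genes were higher at unadjusted P and none at adjusted p in limma, where the smallest was 0.515, against 1.17% of all genes that were higher at unadjusted P in that fit. The 6 protein genes with under 50% of their windows in nuclear transcripts, mt-Nd1, mt-Nd2, mt-Nd5, mt-Nd6, mt-Cytb and mt-Atp8, needed no such sum, and their differences ran from 0.48 to 0.76 with a median of 0.60. Levels of the protein genes are therefore given with copies added below. Gm29216 matches only the last 492 of the 1545 bases of mt-Co1. As TPM is corrected for length, adding it can overstate the level of the whole gene. This limit also holds for shares, ratios and complex IV sums that include mt-Co1.

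**Figure D3:**
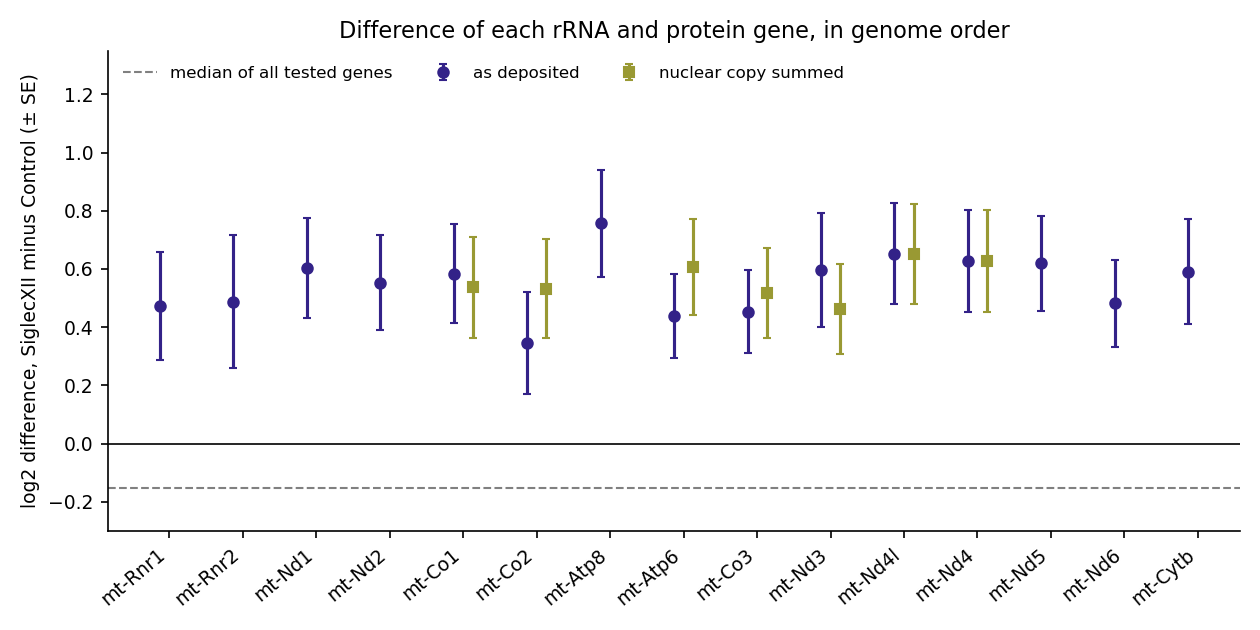
log2 difference, SiglecXII minus control, with its standard error from limma (vertical axis) for the 2 rRNA and 13 protein genes in genome order. Circles are values as deposited and squares those with the nuclear copy summed; the lowest circle, mt-Co2 at 0.34, has its square at 0.53, and every point is above 0 and above the dashed median of all tested genes at −0.15.

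With copies added, the highest of the 13 was mt-Co1 (ENSMUSG00000064351, chrM:5328-6872), which encodes the catalytic subunit of cytochrome c oxidase. As deposited, its mean TPM was 12054 ± 1394 in controls and 18309 ± 4217 in SiglecXII samples (SD, n = 4 each). With its copy added, its TPM was 17948, 14442, 17986 and 18427 in controls and 19845, 22312, 25113 and 34238 in SiglecXII samples, and the groups did not overlap. Its log2 difference was 0.54 ± 0.174 (SE, adjusted p = 0.515 from limma). mt-Co3 (ENSMUSG00000064358, chrM:8607-9390), another core subunit of the same complex, had a mean TPM of 12019 ± 1127 in controls and 17418 ± 3720 in SiglecXII samples (SD, n = 4 each). mt-Co2 (ENSMUSG00000064354, chrM:7013-7696), which takes electrons from cytochrome c, had 10826 ± 1408 and 15830 ± 3481 (SD, n = 4 each), and the groups of both genes did not overlap.

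The 2 ATP synthase genes lay next to these. mt-Atp6 (ENSMUSG00000064357, chrM:7927-8607) had a mean TPM of 13373 ± 1813 in controls and 20576 ± 4445 in SiglecXII samples (SD, n = 4 each), without overlap. mt-Atp8 (ENSMUSG00000064356, chrM:7766-7969), a small membrane subunit, had a TPM of 9386, 6210, 10791 and 8148 in controls and 13547, 12720, 13460 and 18000 in SiglecXII samples. Its lowest SiglecXII sample was above its highest control, and its log2 difference of 0.76 ± 0.184 (SE, adjusted p = 0.515 from limma) was the highest among the 13. As 13 of the 174 windows of mt-Atp8 also lie in mt-Atp6, reads of the overlap could be assigned to either gene.

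mt-Cytb (ENSMUSG00000064370, chrM:14145-15288) is the mitochondrial gene of complex III. Its TPM was 3934, 3140, 4358 and 4153 in controls and 4510, 5271, 6151 and 7876 in SiglecXII samples. No control reached the lowest SiglecXII sample, and the log2 difference was 0.59 ± 0.179 (SE, adjusted p = 0.515 from limma).

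The 7 genes of complex I, which takes electrons from NADH, had the 7 lowest levels of the protein genes. mt-Nd1 (ENSMUSG00000064341, chrM:2751-3707) had a mean TPM of 3472 ± 604 in controls and 5293 ± 1091 in SiglecXII samples, and mt-Nd4l (ENSMUSG00000065947, chrM:9877-10173) had 3156 ± 539 and 4979 ± 1012 (SD, n = 4 each). mt-Nd4 (ENSMUSG00000064363, chrM:10167-11544) had 2441 ± 336 and 3821 ± 921, mt-Nd2 (ENSMUSG00000064345, chrM:3914-4951) 1453 ± 187 and 2158 ± 491, and mt-Nd5 (ENSMUSG00000064367, chrM:11742-13565) 1002 ± 147 and 1548 ± 309 (SD, n = 4 each). In each of these 5 genes every SiglecXII sample was above every control. Their log2 differences were 0.60, 0.65, 0.63, 0.55 and 0.62 in this order.

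The other 2 genes of complex I were the exceptions to this separation. With its copy added, mt-Nd3 (ENSMUSG00000064360, chrM:9459-9806) had a TPM of 2524, 2461, 3093 and 2854 in controls and 3050, 3423, 3796 and 4983 in SiglecXII samples, where control 3 was above SiglecXII 1. As deposited, mt-Nd3 alone had 503, 492, 444 and 642 in controls and 682, 662, 694 and 1177 in SiglecXII samples, without overlap. mt-Nd6 (ENSMUSG00000064368, chrM:13552-14070), the one protein gene made from the minus strand, had 2084, 1631, 2327 and 1979 in controls and 2315, 2553, 2915 and 3456 in SiglecXII samples, where control 3 was just above SiglecXII 1. Its log2 difference was 0.48 ± 0.151 (SE, adjusted p = 0.515 from limma).

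**Figure D4:**
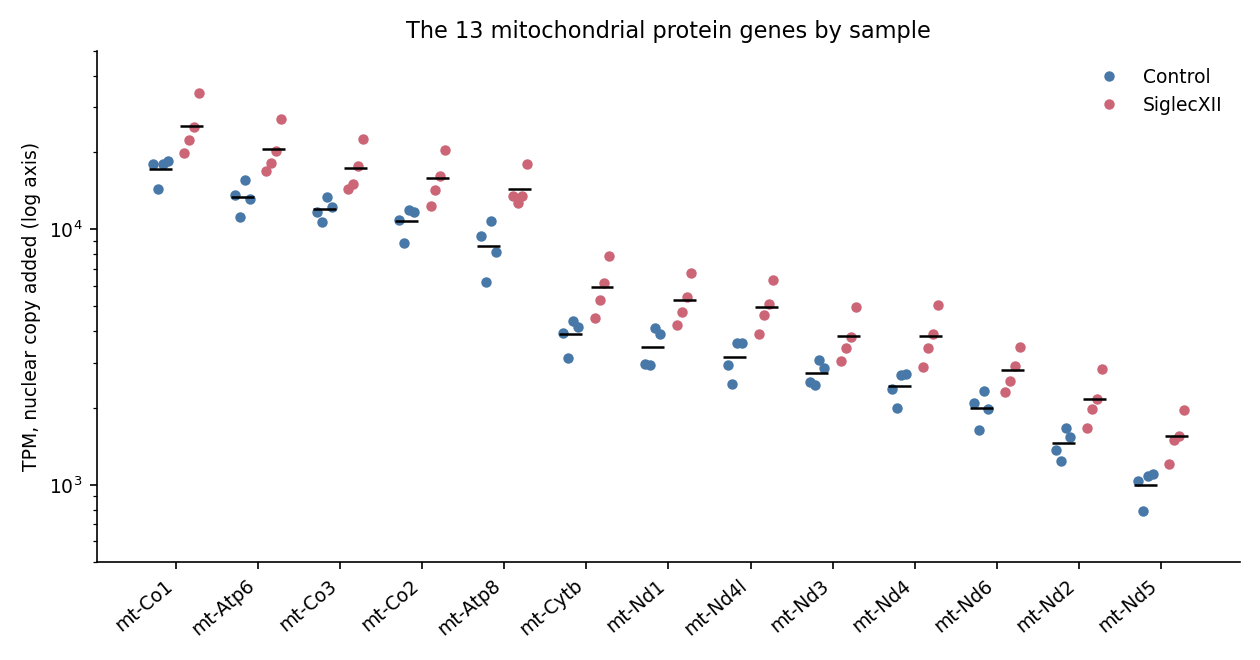
TPM with the nuclear copy added (vertical axis, logarithmic) of the 13 protein genes, ordered by their mean over 8 samples. Points are samples and horizontal bars group means of TPM, and the groups overlap in mt-Nd3 and mt-Nd6 alone. The lowest SiglecXII point is above the highest control point in the other 11 genes, against 1.05% of all tested genes as deposited. The 13 genes are not independent of one another.

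The order of levels among the protein genes hardly varied between samples. Mean TPM over 8 samples fell from 21289 in mt-Co1 to 1275 in mt-Nd5, a ratio of 16.7. The mean of mt-Co1 was 15182 as deposited, below the 16975 of mt-Atp6 with its copy. The first place of mt-Co1 in this order thus rests on its partial copy. Each gene was above the next in the order mt-Co1, mt-Atp6, mt-Co3, mt-Co2, mt-Atp8, mt-Cytb, mt-Nd1, mt-Nd4l, mt-Nd3, mt-Nd4, mt-Nd6, mt-Nd2 and mt-Nd5 in all 8 samples, except that mt-Co2 was above mt-Atp8 in 7 and mt-Nd3 above mt-Nd4 in 5. mt-Nd3 and mt-Nd4 thus did not differ beyond the spread between samples. The share of mt-Co1 in the summed protein TPM was 21.0% ± 1.04 in controls and 20.4% ± 0.633 in SiglecXII samples (SD, n = 4 each), and the share of mt-Nd5 was 1.22% ± 0.0631 and 1.25% ± 0.0735 (SD, n = 4 each). The groups overlapped in the share of each of the 13 genes.

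The samples moved along a common level. After each gene was centered on its mean over the 8 samples, the mean of the 13 log2 values was −0.30, −0.56, −0.10 and −0.20 in controls and −0.0067, 0.16, 0.32 and 0.68 in SiglecXII samples (with copies added). This single value per sample held 95.8% of the variation of the 13 centered genes, and 91.3% where the copies were not added. The largest departure from it with copies added was 0.31, in mt-Atp8 of SiglecXII 1, and the median departure was 0.043. The range of this value within SiglecXII samples, from −0.0067 to 0.68, was wider than the step between the highest control (−0.10) and the lowest SiglecXII sample.

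Ratios between neighbors do not depend on the share of TPM held by other genes, and 4 of them were compared by two-sided exact permutation. With 70 possible labelings, the smallest p is 0.0286. mt-Rnr2 to mt-Rnr1 had a mean log2 ratio of 0.52 ± 0.122 in controls and 0.54 ± 0.144 in SiglecXII samples (SD, n = 4 each; exact permutation p = 0.83). mt-Nd4l to mt-Nd4, which overlap on the same strand, had 0.37 ± 0.0574 and 0.39 ± 0.0511 (SD, n = 4 each; exact permutation p = 0.571). Neither difference was larger than the spread between samples.

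mt-Nd6 to mt-Nd5, which lie on opposite strands, had a log2 ratio of 1.01, 1.05, 1.10 and 0.84 in controls and 0.95, 0.78, 0.92 and 0.82 in SiglecXII samples. The difference was −0.14 (exact permutation p = 0.114, 0.229 after Benjamini-Hochberg adjustment over the 4 ratios). Control 4 was the one control below some SiglecXII samples. mt-Atp8 to mt-Atp6 as deposited had 0.14, −0.16, 0.39 and −0.17 in controls and 0.50, 0.37, 0.24 and 0.38 in SiglecXII samples, a difference of 0.32 (exact permutation p = 0.114, adjusted 0.229). With Gm10925 added to mt-Atp6, the difference was 0.15 (exact permutation p = 0.229). The bases shared by mt-Nd6 and mt-Nd5 are too few to fill a window, so no window lies in both genes. The library kit keeps the strand of the RNA, but whether kallisto used it is not stated. If it was not used, RNA from the strand opposite mt-Nd6 may have been counted as mt-Nd6.

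The 2 rRNAs of the mitochondrial ribosome had far lower TPM than most of the mRNAs they translate. The labels name a total RNA kit that is sold with removal of rRNA, and the Methods an mRNA kit, so these are levels left after such a step. mt-Rnr1 (12S rRNA, ENSMUSG00000064337, chrM:70-1024) had a TPM of 328, 313, 347 and 375 in controls and 401, 389, 443 and 718 in SiglecXII samples. mt-Rnr2 (16S rRNA, ENSMUSG00000064339, chrM:1094-2675) had 515, 459, 502 and 480 in controls and 511, 560, 664 and 1163 in SiglecXII samples. The groups did not overlap in mt-Rnr1, and SiglecXII 1 lay inside the controls in mt-Rnr2. The log2 differences were 0.47 ± 0.185 for mt-Rnr1 and 0.49 ± 0.228 for mt-Rnr2 (SE, adjusted p = 0.515 from limma for both). SiglecXII 4 lay above the other 7 samples in both genes, and without it the differences were 0.27 and 0.23.

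The tRNA genes were mostly at the edge of what the data could show. A tRNA of these genes is 59 to 75 bases long, shorter than a single read of the library. Between 8 and 10 of the 22 were at 0 in each sample, mt-Th was at 0 in all 8, and 7 were above 0 in all 8. The lowest nonzero value of a sample lay between 1.87 and 4.05 TPM. Among the tRNA genes of 69 bases, 24 values under 100 TPM stood beside the lowest nonzero value of their sample, and 23 of them were whole multiples of it (within 0.05).

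The 3 highest tRNA genes were all on the minus strand, and mt-Tp was by far the highest. The genes for proline (mt-Tp, chrM:15356-15422), glutamate (mt-Te, chrM:14071-14139) and one of the serine tRNAs (mt-Ts1, chrM:6870-6938) are shown as transcribed, with that for alanine (mt-Ta, chrM:5018-5086), which had the highest fold-change, and the plus-strand neighbor of mt-Tp, the gene for threonine (mt-Tt, chrM:15289-15355), which is of the same length and was at most 4.02 TPM.
mt-Tp: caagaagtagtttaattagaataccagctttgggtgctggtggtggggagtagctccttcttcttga
mt-Te: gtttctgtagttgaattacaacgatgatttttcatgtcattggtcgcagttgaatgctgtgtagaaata
mt-Ts1: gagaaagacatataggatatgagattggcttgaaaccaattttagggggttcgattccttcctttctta
mt-Ta: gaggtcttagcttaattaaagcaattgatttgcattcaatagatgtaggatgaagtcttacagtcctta
mt-Tt: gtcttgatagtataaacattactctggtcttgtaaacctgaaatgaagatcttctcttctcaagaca

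mt-Tp (ENSMUSG00000064372) borders the control region, where transcription of both strands begins, and no gene is annotated there. Its TPM was 3211, 3864, 3210 and 2671 in controls and 4209, 4477, 5128 and 5886 in SiglecXII samples. As the gene is shorter than a read, its TPM cannot be set against that of the protein genes. The groups did not overlap, and the log2 difference was 0.60 ± 0.144 (SE, adjusted p = 0.515 from limma). Without mt-Tp, the tRNAs together held 0.0217% ± 0.00699 of TPM in controls and 0.0317% ± 0.0105 in SiglecXII samples (SD, n = 4 each), and the groups overlapped.

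mt-Te (ENSMUSG00000064369), which adjoins mt-Nd6 on the minus strand without a gap, had a TPM of 32.6, 22.7, 19.1 and 14.3 in controls and 59.3, 35.9, 46.0 and 45.1 in SiglecXII samples. The groups did not overlap. Its log2 difference of 1.07 ± 0.240 had the smallest unadjusted P of the 28 genes (SE, adjusted p = 0.515 from limma). The lowest nonzero value among tRNA genes of its length was 2.51, 5.66, 2.38 and 2.39 in controls. In SiglecXII samples this lowest value was 8.47, 2.11, 2.56 and 2.05, and mt-Te was a small multiple of it in some samples. In control 2, mt-Tm of the same length was at 8.50, which is not a whole multiple of 5.66. The lowest value can thus exceed the smallest step, so its multiples do not count reads. mt-Ta (ENSMUSG00000064347) had a TPM of 0, 5.66, 0 and 0 in controls and 16.9, 2.11, 7.67 and 6.14 in SiglecXII samples. The groups overlapped, and its log2 difference of 2.25 ± 0.709 (SE, adjusted p = 0.515 from limma) depends on the pseudocount added to the zeros.

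mt-Ts1 (ENSMUSG00000064352) varied widely within both groups, with a TPM of 181, 110, 167 and 76.5 in controls and 229, 92.8, 184 and 270 in SiglecXII samples. The groups overlapped, and the log2 difference was 0.51 ± 0.366 (SE, adjusted p = 0.551 from limma). Of the other tRNA genes named by rule, mt-Tl1 had a log2 difference of 0.38 ± 0.672, mt-Tn of −0.22 ± 0.632 and mt-Tf of −0.13 ± 0.743 (SE), all smaller than their standard errors. These 3 differences changed sign in other forms of the analysis.

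Level and coding strand went together among the tRNA genes. The 8 on the minus strand had mean TPM from 2.57 to 4082 with a median of 10.2, and 4 of them were at 10 or more. The 14 on the plus strand had mean TPM from 0 to 12.5 with a median of 0.953, and 1 of them was at 10 or more. These are descriptions of 22 genes in the same libraries. As the strand setting of kallisto is not known, the level of a gene cannot be read as transcription of its strand.

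**Figure D5:**
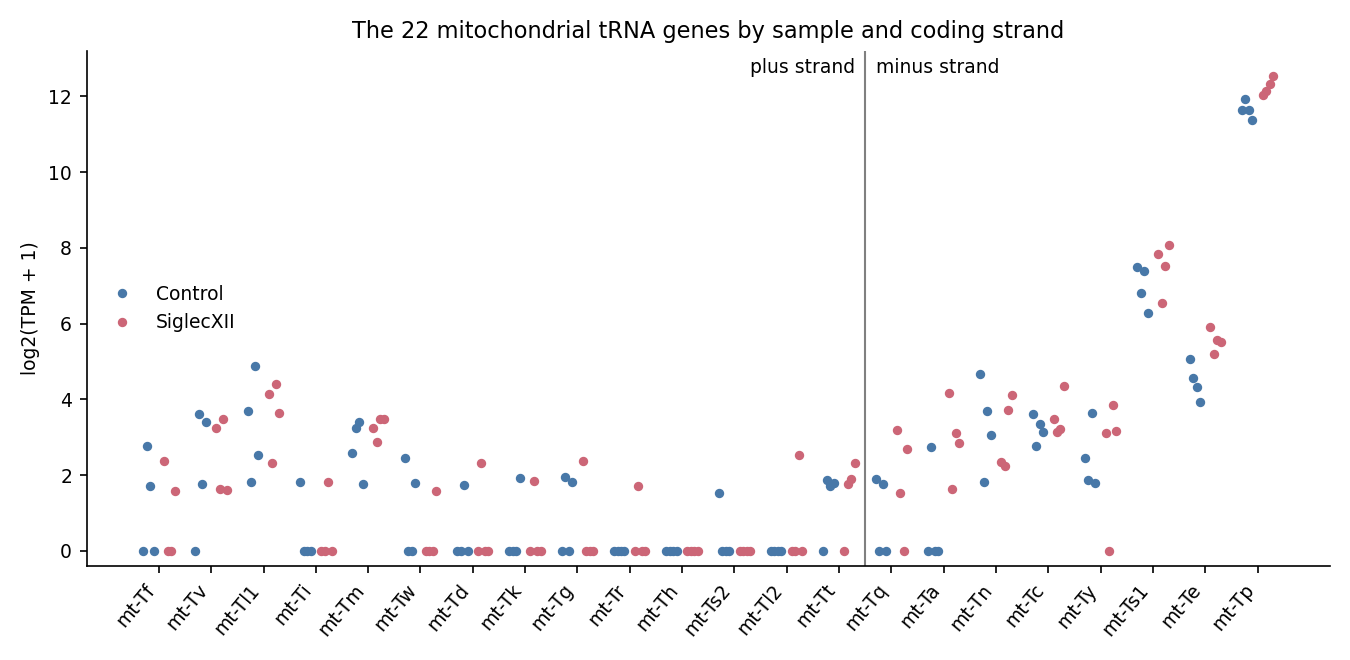
log2(TPM + 1) (vertical axis) of the 22 tRNA genes in the 4 samples of each group, split by coding strand. Many points lie at 0, and mt-Ts1, mt-Te and mt-Tp on the minus strand stand above the rest, with the SiglecXII points above the control points in mt-Te and mt-Tp.

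A list of nuclear genes that copy, transcribe, process and degrade mitochondrial nucleic acids, or control these steps, was read beside the transcripts. Of 53 listed genes, 52 had a value and 51 were tested. At an adjusted p of 0.05 or less, 0 passed in limma. At unadjusted P, 2 were lower and 0 higher, against 7.67% of all tested genes that were lower and 1.19% that were higher. The log2 difference was above 0 in 11 of the 51 and below 0 in 40, with a median of −0.13 beside −0.15 for all tested genes. Neither count stood above the background.

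Mrm3, which methylates the large mitochondrial rRNA, was the lower gene with the smallest P. Its log2(TPM + 1) was 3.13, 2.87, 2.86 and 2.86 in controls and 2.60, 2.63, 2.52 and 2.30 in SiglecXII samples, without overlap, and its difference was −0.42 ± 0.133 (SE, adjusted p = 0.515 from limma). It was −0.20 with median centring, −0.17 with quantile normalization and −0.31 without SiglecXII 3 and 4, past an unadjusted P of 0.05 in none of these. Pprc1, a coactivator related to PGC-1α, had 3.06, 3.24, 2.73 and 2.96 in controls and 2.82, 2.69, 1.85 and 1.63 in SiglecXII samples. SiglecXII 1 lay inside the controls, SiglecXII 3 and 4 were the lowest, and the difference was −0.75 ± 0.279 (SE, adjusted p = 0.515 from limma). It was −0.24 without SiglecXII 3 and 4, and it was not past an unadjusted P of 0.05 without either of them, without control 2 or with array weights. Mrm3 and Twnk, the mitochondrial DNA helicase, were the 2 genes of the list with all SiglecXII samples below all controls, against 4.06% of tested genes. Twnk differed by −0.35 ± 0.164 (SE, adjusted p = 0.515 from limma), and was named after its values were seen.

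Lrpprc and Slirp encode the 2 partners of a complex that stabilizes mitochondrial mRNAs. Lrpprc was 3.63, 3.92, 3.98 and 3.62 log2(TPM + 1) in controls and 3.75, 3.62, 3.02 and 2.71 in SiglecXII samples, a difference of −0.51 ± 0.235 (SE, adjusted p = 0.515 from limma) with overlap. Slirp differed by 0.093 ± 0.102, Polg2, a subunit of the mitochondrial DNA polymerase, by 0.097 ± 0.107, and Ppargc1a, the coactivator PGC-1α, by 0.21 ± 0.190 (SE, adjusted p from 0.613 to 0.668 in limma). Tfam and Polrmt, which package and transcribe the genome, were not named by the rule and differed by −0.14 and −0.15.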

How the data were processed

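RNA from distal colon of 4 Control and 4 SiglecXII samples was sequenced as paired reads of 100 bases. The authors deposited 1 value per gene and sample on a log2 scale, log2(TPM + 1), with no adjustment between samples. The submitters' processing notes name kallisto 0.45.0 and GRCm38, whereas the paper's methods name another kallisto version and a human reference. Of the deposited gene identifiers, which are mouse Ensembl identifiers, 98.3% are in GENCODE M21. The library kit differs between the labels and the methods, and the strand setting of kallisto is not given in the sources used here. TPM keeps no depth, so the number of samples limits the precision.

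Genes that reached a TPM of 1 in 4 or more samples (13164) were fitted in R 4.3.3 by limma 3.58.1 with lmFit and eBayes (trend), SiglecXII against Control, with Benjamini-Hochberg adjustment over all of them. The fit was checked on simulated data. Limits were an adjusted p of 0.05, an unadjusted P of 0.05, and the latter with a fold-change of 2. Sums and shares of TPM carry no test. The 4 neighbor ratios were compared by two-sided exact permutation. Windows of 31 bases, positions and sequences come from GENCODE M21 transcripts on GRCm38, and a nuclear copy is a transcript with at least 50% of its windows in a mitochondrial gene. Python 3.11.15, pandas 2.3.3 and matplotlib 3.10.9 were used for tables and figures.

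The members, the lists of nuclear genes and markers, and the comparisons were chosen with earlier results of these data known. Named by rule were all protein and rRNA genes, the 5 highest tRNA genes, and the smallest P, up to 3 each way, among tRNA genes, the list of nuclear genes and the copies, with the 3 highest copies. Twnk, Tfam, Polrmt and the other tRNA genes and copies with values were named outside this rule. Same-numbered samples had correlations of −0.16, −0.20, 0.10 and −0.0025 of their deviations from the group means, so the numbers were not taken as pairs. Alternatives were no filter or one at a TPM of 5, a pseudocount of 0.1, median centring, quantile normalization, rescaling to other genes, array weights, the number as a block, and each sample left out in turn. The sums with nuclear copies and the fits without SiglecXII 3 and 4 were added after seeing the data.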

Additional observations from a re-analysis of the deposited data

Results flagged for a closer look

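In 5 of 80 groups of 4 samples examined, 1 sample lay far from the other 3, where chance gives about 1 in 20 groups, or 4. The measure is that sample's distance from its closest neighbor divided by the whole range of the group, read against Dixon's critical value for 4 samples. For mt-Nd3 as deposited, SiglecXII 4 (TPM 1177 beside 662 to 694) had a share of 0.916. For mt-Ta, control 2 had a share of 1, as the one control above 0. For the summed rRNA TPM, control 2 lay lowest (772 beside 843 to 855) with a share of 0.854. Among the nuclear genes, Ppargc1a in SiglecXII 2 (3.96 log2(TPM + 1) beside 3.70 to 3.74) had a share of 0.840 and Mrm3 in control 1 (3.13 beside 2.86 to 2.87) a share of 0.963.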

How the results depend on the processing

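No mitochondrial gene passed an adjusted p of 0.05 in limma under any of the alternatives. The 16 genes at unadjusted P were between 13 and 17 under the other settings, 15 to 19 with 1 sample left out, and 5 without SiglecXII 3 and 4. With a fold-change of 2 in addition, 2 genes became 1 with array weights and 1 without SiglecXII 3 and 4, and 1 to 3 with 1 sample left out. Median centring moved the split of all calls at unadjusted P from 157 higher and 1010 lower to 1137 and 285, and quantile normalization to 704 and 408, while the median of the 13 protein genes was 0.80 and 0.49. Their mean log2 difference was 0.43 to 0.65 with 1 sample left out. Without a filter, 402 of 52143 genes were higher and 1698 lower at unadjusted P. Array weights gave 432 and 1419 of all 13164 tested genes, and the fit without SiglecXII 3 and 4 gave 155 and 207. With 1 sample left out, 97 to 182 were higher and 386 to 2183 lower. In the list of 51 nuclear genes, the 2 at unadjusted P became 4 without a filter, 4 with array weights, 1 without SiglecXII 3 and 4, and 1 to 6 with 1 sample left out, and median centring (2 higher, 1 lower) and quantile normalization (1 higher, 1 lower) moved the direction. The 4 nuclear copies at unadjusted P became 1 without SiglecXII 3 and 4 and 2 to 5 with 1 sample left out. With a fold-change of 2, where none had passed, 2 did after median centring, 1 after rescaling to other genes, 1 with array weights, and 0 to 2 with 1 sample left out. Signs changed for mt-Atp6 under quantile normalization (−0.081), mt-Ts1 with array weights (−0.0018), mt-Tl1 with array weights (−0.31), without SiglecXII 3 and 4 (−0.011) and with 1 sample left out (−0.085 to 0.93), mt-Tn under quantile normalization (0.0049) and with 1 sample left out (−0.71 to 0.24), and mt-Tf after median centring (0.079), without SiglecXII 3 and 4 (0.063) and with 1 sample left out (−0.59 to 0.41). The log2 ratio of mt-Rnr2 to mt-Rnr1 differed by −0.085 without SiglecXII 3 and 4 (−0.040 to 0.078 with 1 sample left out), that of mt-Atp8 to mt-Atp6 by 0.25 to 0.43 and that of mt-Nd6 to mt-Nd5 by −0.19 to −0.10. The causes were not tested. The replicate number as a block gave 17 mitochondrial genes (all higher) at unadjusted P and 0 at adjusted p. It gave 2 of the listed nuclear genes (lower) and 4 of the copies (higher) at unadjusted P. Of all 13164 tested genes, 130 (0.988%) were higher and 815 lower in that fit. A paired exact test of the ratios allows no p below 0.125. The number of samples and the low levels of most tRNA genes limit what could be detected.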
